A study of Mus musculus with 12 samples.

Results

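The genes described here are 37 genes that mark large peritoneal macrophages, out of 15721 genes in the expression table. They are given by name, and the rule uses no measured value, but they were chosen with earlier results of these data known. All 37 names were found, each on 1 row. They were measured by RNA sequencing of poly-dT-enriched RNA from peritoneal macrophages that had been isolated from C57BL/6 mice by FACS, in 12 libraries of 4 genotypes with 3 libraries each. WT carries no listed mutation. Samhd1 KO lacks Samhd1, which encodes a dNTP hydrolase that limits nucleic acids able to trigger interferon. Samhd1 Cardif dKO lacks Samhd1 together with Cardif, the protein through which RIG-I-like sensors of RNA signal, listed in the table as Mavs. Samhd1 Sting dKO lacks Samhd1 together with Sting, through which the DNA sensor cGAS signals, listed as Tmem173. Every mutant group thus shares the loss of Samhd1. All mice were female except the male Samhd1 Cardif dKO 1. The labelled ages, given with no unit, were 16 in each WT library, 19, 18 and 16 for Samhd1 KO, 18, 18 and 16 for Samhd1 Cardif dKO, and 24, 16 and 18 for Samhd1 Sting dKO. The labels number the libraries but do not say whether each is 1 animal or a pool, so p-values measure the spread between these libraries.

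Large peritoneal macrophages are the resident macrophages of the mouse peritoneal cavity. They are maintained by self-renewal and by slow input from monocytes, carry high F4/80 and CD11b, and take up dying cells. Their identity depends on the transcription factor GATA6, which retinoic acid induces in the cavity. Small peritoneal macrophages are a separate population, fed by monocytes, with less F4/80 and more MHC class II. The resident cells are also known for clotting factors and matrix proteins that help to wall off injury and microbes in the cavity.

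The libraries held 18884021 to 32204657 reads in genes. Values below are normalized reads, that is, reads of a gene after division by the library's size factor. Samhd1 itself was still read in the mutants. It was at 10113 to 11525 normalized reads in WT, 5555 to 7816 in Samhd1 KO, 2952 to 4307 in Samhd1 Cardif dKO and 3196 to 4563 in Samhd1 Sting dKO, and every mutant library was below every WT library. Mavs was at 509 to 525 in Samhd1 Cardif dKO and at 768 to 1008 in the other libraries. Tmem173 was at 538 to 577 in Samhd1 Sting dKO, against 481 to 548 in WT, 696 to 768 in Samhd1 KO and 577 to 653 in Samhd1 Cardif dKO, so it was below Samhd1 KO without overlap but not below WT. These are sums over a whole gene and cannot show a small deletion or a point mutation.

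Markers of other cells were also read, and some moved with the genotype. The summed normalized reads of 12 B cell markers were 1096 to 1697 in WT, 589 to 974 in Samhd1 KO, 636 to 1433 in Samhd1 Cardif dKO and 2401 to 4696 in Samhd1 Sting dKO, so that every Samhd1 Sting dKO library lay above all others. For dendritic cells, monocytes and small peritoneal macrophages, 15 of 17 listed markers were in the table and summed to 11296 to 13582 in WT, 15282 to 20692 in Samhd1 KO, 13430.5 to 18497 in Samhd1 Cardif dKO and 12136 to 18986 in Samhd1 Sting dKO. The 16 proliferation genes varied most between libraries of 1 genotype, with 2627 to 12965 in WT, 5184 to 19687 in Samhd1 KO, 1889 to 4681 in Samhd1 Sting dKO and 8149 to 33691 in Samhd1 Cardif dKO. For 9 of 12 mast cell and eosinophil markers the sums over all libraries ran from 1674 to 3091, and Fcer1a was at 0 in Samhd1 Cardif dKO. For 7 of 12 T and NK cell markers they ran from 50.9 to 234, with Cd3d and Klrb1c at 0 in Samhd1 KO. The sums ran from 175 to 507 for 5 of 9 mesothelial and fibroblast markers, with Krt19 and Col3a1 at 0 in WT, and from 37.2 to 75.4 for 2 of 9 neutrophil markers. Of the 12 B cell markers limma called 10 higher in Samhd1 Sting dKO against Samhd1 KO, 5 against WT and 2 against Samhd1 Cardif dKO. Of all tested genes, limma called 2.77% higher against Samhd1 KO and 3.57% against WT. Against Samhd1 Cardif dKO it called 0.28% in either direction. Of 8 tested mast cell and eosinophil markers, 3 fell in Samhd1 KO against WT (1.62% of all genes): Cma1, Mcpt4 and Tpsb2. In Samhd1 Sting dKO against Samhd1 KO 4 rose (2.77% of all genes), Cpa3 and these 3. The means of Cma1, Mcpt4 and Tpsb2 in Samhd1 KO were near the floor, at 1.5, 0.93 and 1.9 normalized reads. The sums of the 9 markers overlapped, at 2771 to 2985 in WT, 1720 to 3091 in Samhd1 KO and 2107 to 2920 in Samhd1 Sting dKO. In Samhd1 KO against WT edgeR called 1 of these markers lower (4.43% of all genes in either direction). Krt7 of mesothelium fell in Samhd1 Sting dKO against WT. In bulk RNA, fewer cells of a type and less RNA per cell cannot be told apart.

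Most of the 37 genes were abundant, but they were chosen with earlier results of these data known. Their levels therefore do not test whether the cells were large peritoneal macrophages. Emr1, the table's symbol for the gene of F4/80, ranked 26 by mean normalized reads among all genes, and Itgam, which encodes CD11b, ranked 9. All 37 genes were read in every library and all 37 passed the filter on low values. Of them, 18 lay among the 100 most abundant genes, 31 among the first 500 and 34 among the first 1000. Their means over the 12 libraries ran from 953 for Apoc1 to 899681 for Fn1. Together the 37 genes took 13.2% of normalized reads in Samhd1 KO 2, the lowest share, and 15.9% in WT 3, the highest. Lyz2 and Fn1 alone took 5.69% to 8.58%. Corrected for transcript length, Lyz2 was the most abundant gene in the table at 663607 normalized reads per kb of transcript. Saa3 ranked 3 at 240751 per kb, Fn1 ranked 5 at 107824, Alox15 ranked 6 at 98029.6, and Slpi ranked 8 at 74342. At the other end, Gata6 had 1149 per kb, Lbp 993, Garnl3 655 and Naip1 615, so a gene that defines the cell was among the least abundant of the 37. Reads of Lyz2, Saa3 and Naip1 may be shared with near-identical relatives, and their levels are uncertain for that reason.

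**Figure D1:**
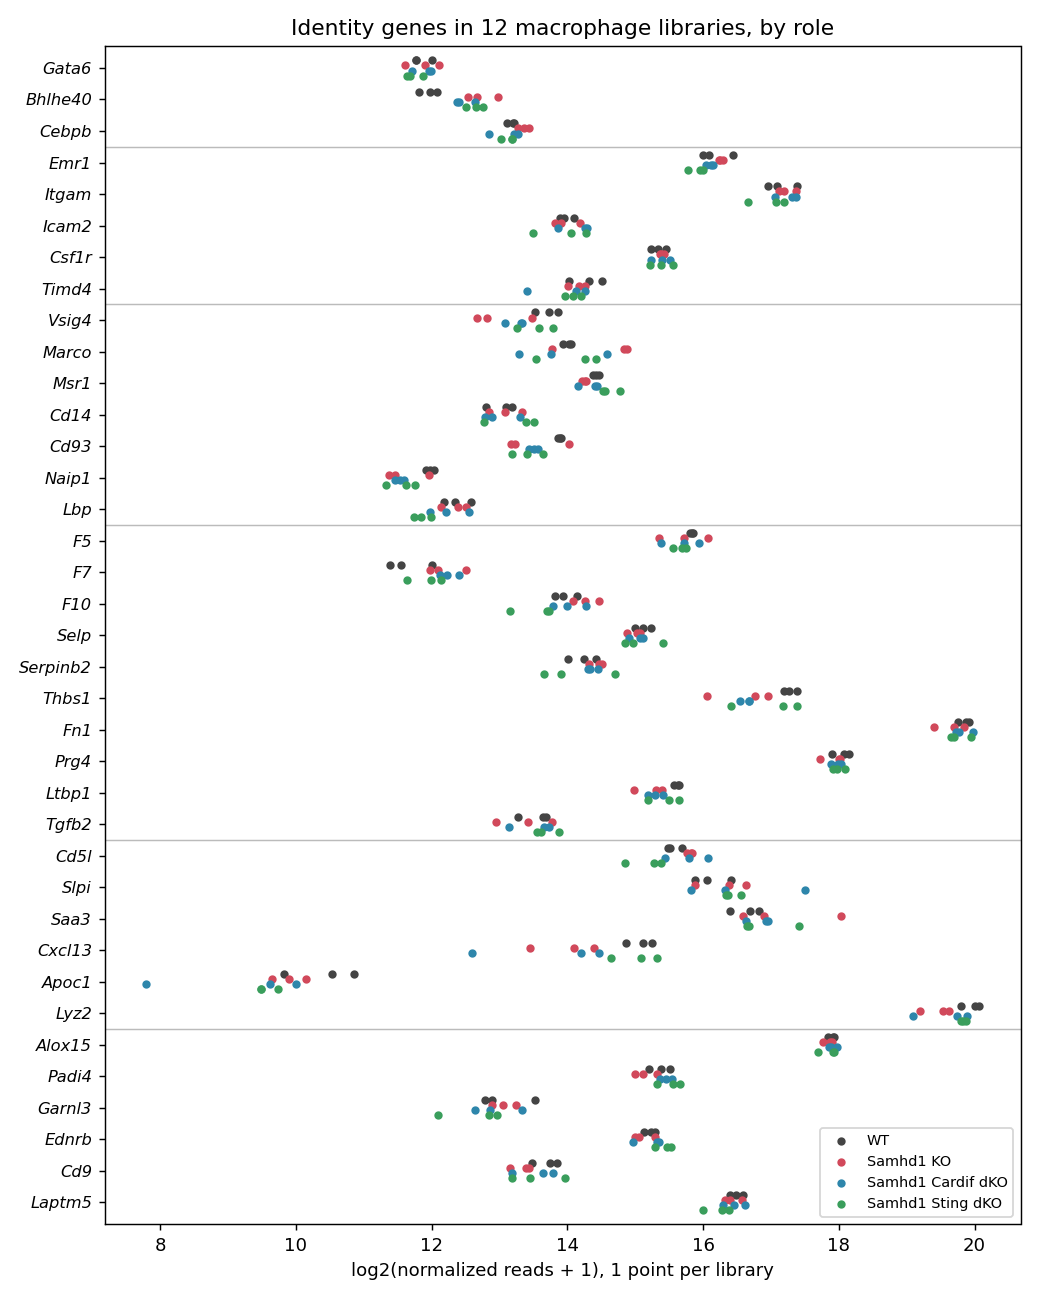
Level of each of the 37 genes in each of the 12 libraries, as log2 of normalized reads plus 1 on the horizontal axis, with genes grouped by role and 1 point per library coloured by genotype. On this wide axis the points of most genes lie close together, and differences between genotypes without overlap, counted in the text, are hard to see. The wide rows are Apoc1, Cxcl13, Slpi, Saa3 and Marco, whose highest library was over 3 times the lowest.

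Most of the genes stayed within 2-fold over the libraries, but within a genotype most varied more than the median of all tested genes. The highest library was less than 2 times the lowest for 23 of the 37, and less than 1.5 times for 7. Alox15 was the steadiest, with 211376 to 257935 normalized reads and a ratio of 1.22, followed by Csf1r with a ratio of 1.26. The ratio was over 3 for Apoc1 (8.36), Cxcl13 (6.63), Slpi (3.24), Saa3 (3.14) and Marco (3.01). The median SD between libraries of 1 genotype was 0.234 on the log2 scale over the 37 genes and 0.169 over all tested genes, and 25 of the 37 lay above that median. The extremes fell on a few libraries. Samhd1 Sting dKO 3 was the lowest of the 12 for 11 genes, Samhd1 KO 2 for 8 and Samhd1 Cardif dKO 1 for 7. Samhd1 Cardif dKO 1, the male library, had the lowest Apoc1, Cxcl13, Lyz2 and Timd4 and the highest Slpi, and also the highest sum of proliferation genes, 33691 normalized reads. Samhd1 KO 2 had the highest Saa3 and the lowest Thbs1, with a proliferation sum of 19687. Samhd1 Sting dKO 3 had the lowest proliferation sum, 1889. With 1 male library, its sex and its other properties cannot be told apart, and the part of proliferation was not tested.

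**Figure D2:**
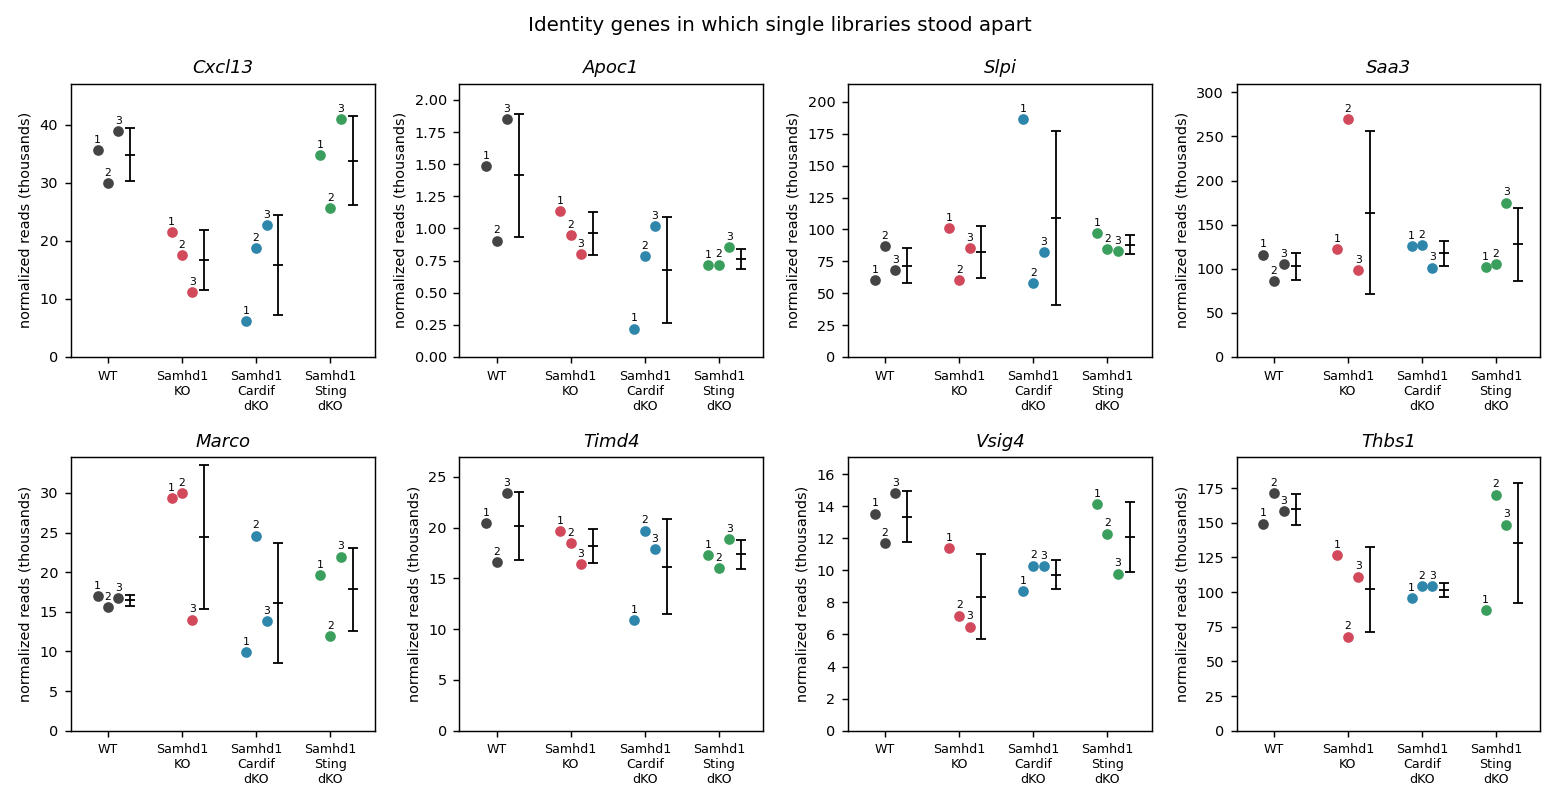
Normalized reads divided by 1000, in each of the 12 libraries, of 8 genes in which single libraries stood apart. Points are libraries with their replicate number, and the bars are the mean and SD of the 3 libraries of a genotype. Samhd1 Cardif dKO 1 is lowest for Cxcl13, Apoc1 and Timd4 and highest for Slpi, and Samhd1 KO 2 is highest for Saa3.

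Few of the 37 genes passed the test between genotypes, and a missed threshold does not show that levels were equal. In the 6 comparisons of 2 genotypes, 0.144% to 6.5% of all 13231 tested genes passed an adjusted p of 0.05 in the limma fit. Of the 222 tests of the 37 genes, 5 passed, and they fell on 4 genes: Bhlhe40, Cd5l, F10 and Msr1. The other 33 genes passed in none. In Samhd1 KO against WT, which differ in listed genotype by Samhd1 alone, 1 gene rose and 0 fell. There, 4.32% of all tested genes were called, that is, passed that threshold (2.71% higher and 1.62% lower). The comparison of Samhd1 Sting dKO with WT had 1 gene that rose and 0 that fell, against 6.5% of all genes (3.57% and 2.93%). In Samhd1 Sting dKO against Samhd1 KO, which differ in listed genotype by Sting, 1 rose and 2 fell, against 5.66% of all genes (2.77% and 2.89%). There, 9 of the 37 had an unadjusted p under 0.05, as did 22.3% of all genes. In these 3 comparisons edgeR made the same calls, with 4.43%, 6.63% and 5.87% of all genes, and DESeq2 called 5, 2 and 6 of the 37, with 8.12%, 10.6% and 10% of all genes. For the loss of Cardif on top of Samhd1, Samhd1 Cardif dKO against Samhd1 KO, limma called 0 of the 37, against 0.144% of all genes. There, 3 had an unadjusted p under 0.05 (8.98% of all genes), and edgeR and DESeq2 called 0 and 0 (0.151% and 1.35% of all genes). In Samhd1 Cardif dKO against WT limma called 0, against 1.06% of all genes, with 8 at an unadjusted p under 0.05, 0 by edgeR and 2 by DESeq2 (14.5%, 1.19% and 3.99% of all genes). Between Samhd1 Sting dKO and Samhd1 Cardif dKO limma called 0, against 0.28% of all genes, with 5 at an unadjusted p under 0.05, 0 by edgeR and 1 by DESeq2 (15.7%, 0.317% and 3.8% of all genes). The counts among the 37 are small, and whether their shares differed from those of all genes was not tested. The comparisons share libraries, so they do not repeat each other independently. The groups also differed in labelled age and in marker sums of other cells, so a count cannot be assigned to the lost gene alone.

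The sizes of the differences were near those of all genes in 4 comparisons and larger in Samhd1 Sting dKO against Samhd1 KO and against Samhd1 Cardif dKO. The median SE of a log2 change was also larger, at 0.17 for the 37 genes and 0.14 for all tested genes. The median absolute log2 change of the 37 was 0.18 in Samhd1 KO against WT, where that of all genes was 0.16. It was 0.17 in Samhd1 Sting dKO against WT, with 0.17 for all genes, and 0.25 in Samhd1 Sting dKO against Samhd1 KO, with 0.16 for all genes. The same pair of medians was 0.19 and 0.13 for Samhd1 Sting dKO and Samhd1 Cardif dKO, 0.13 and 0.14 for Samhd1 Cardif dKO and WT, and 0.10 and 0.12 for Samhd1 Cardif dKO and Samhd1 KO. The signed medians of the 37 lay between -0.12 and 0.02 over the 6 comparisons. In Samhd1 KO against WT, 3 of the 37 were higher and 7 lower in all 3 libraries than in all 3 of WT, beside 26.6% of all genes without overlap (13.8% higher and 12.9% lower). For Samhd1 Sting dKO and WT, 3 were higher and 9 lower without overlap, beside 28.5% of all genes (14.6% and 13.9%). For Samhd1 Sting dKO and Samhd1 KO the counts were 3 and 5, beside 24.8% (11.9% and 12.9%). With 3 libraries a group, changes of several times the SE could still miss the threshold, such as that of Vsig4 in Samhd1 KO against WT (log2 change -0.72, SE 0.19, limma adjusted p = 0.059).

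**Figure D3:**
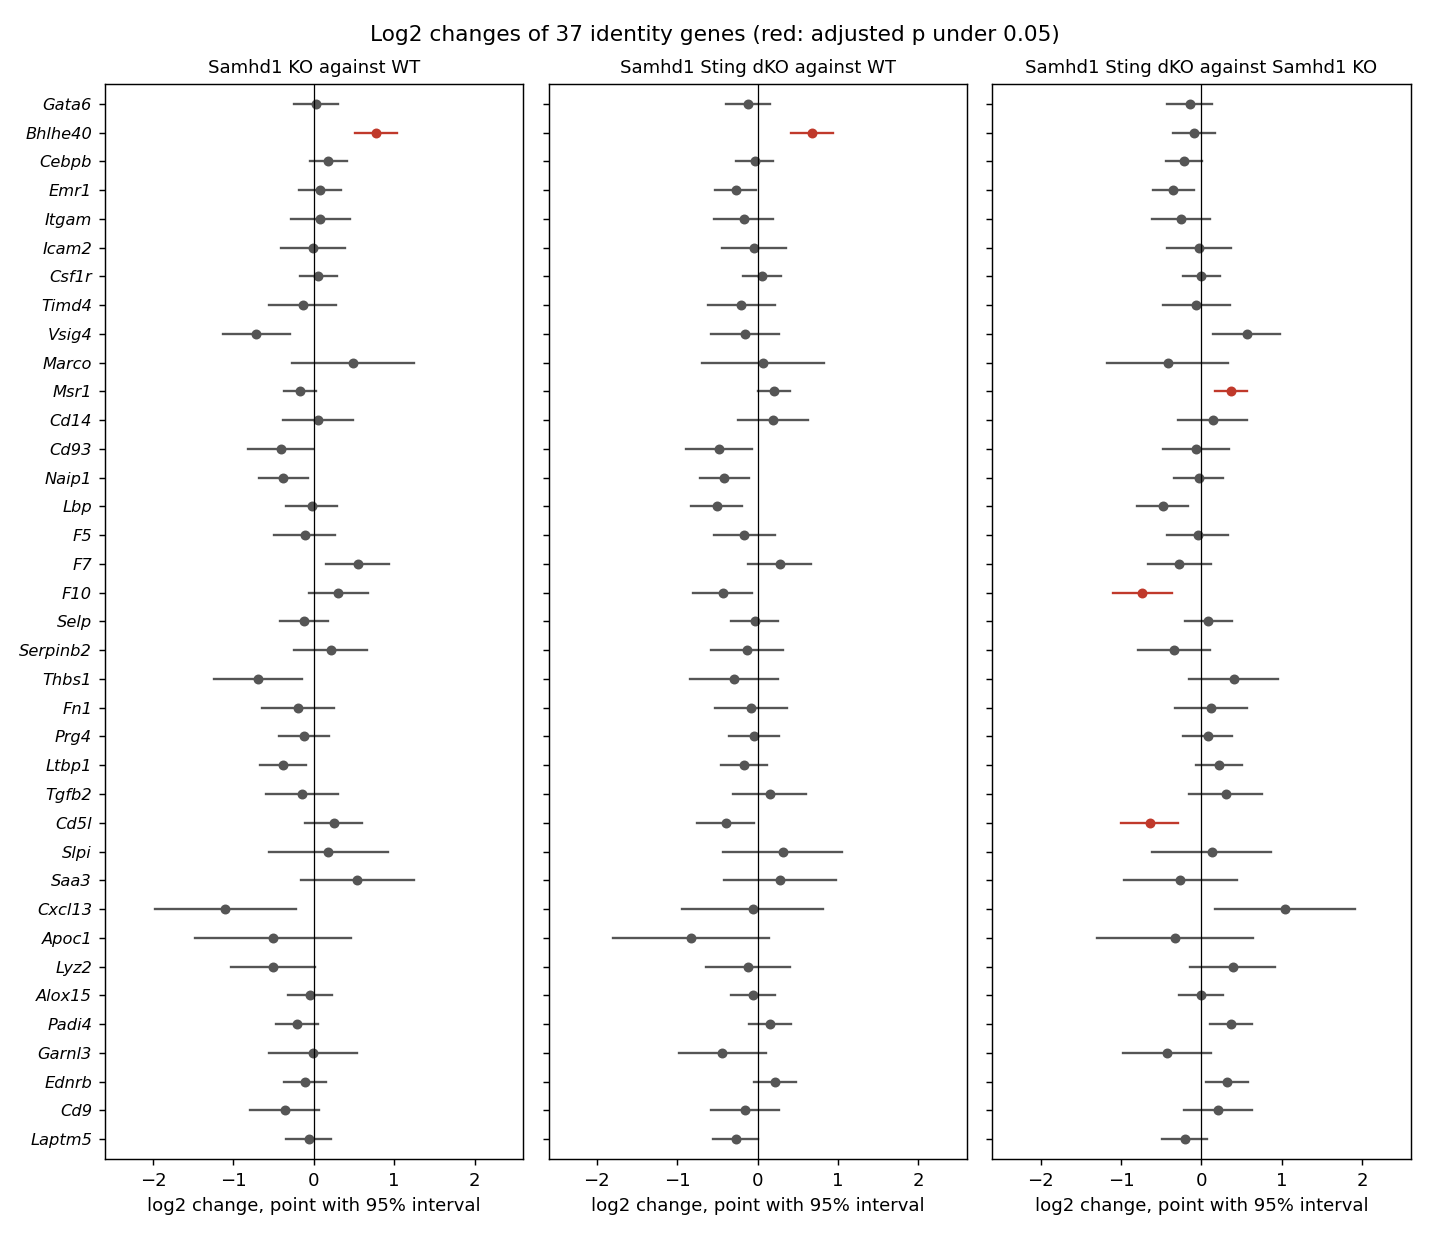
Log2 change of each of the 37 genes in 3 comparisons, Samhd1 KO against WT, Samhd1 Sting dKO against WT and Samhd1 Sting dKO against Samhd1 KO, with its 95% interval from the limma fit. Red marks an adjusted p under 0.05: Bhlhe40 in both comparisons with WT, and Cd5l, F10 and Msr1 in Samhd1 Sting dKO against Samhd1 KO.

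Among the transcription factors, Bhlhe40 rose relative to WT in Samhd1 KO and in Samhd1 Sting dKO, while Gata6 and Cebpb did not pass the test in any comparison. Gata6 stood at 3479.7, 3496 and 4096 normalized reads in the WT libraries and at 3829, 3134 and 4414 in the Samhd1 KO libraries. The Samhd1 Cardif dKO libraries had 4088, 3345 and 3981, and the Samhd1 Sting dKO libraries 3273, 3744 and 3169.8. The groups overlapped throughout. Its log2 change was 0.03 in Samhd1 KO against WT, with a 95% interval of -0.25 to 0.30, and -0.12 in Samhd1 Sting dKO against WT, with an interval of -0.39 to 0.15. WT 1 to 3 had 3616, 4032 and 4343 normalized reads of Bhlhe40, and Samhd1 KO 1 to 3 had 5965, 6534 and 8093. With a further adaptor lost, the values were 6371, 5426 and 5309 for Samhd1 Cardif dKO and 6913, 5837 and 6421 for Samhd1 Sting dKO. Every mutant library was above every WT library. BHLHE40 is a transcriptional repressor with a basic helix-loop-helix, and in the mouse it is known to be needed for large peritoneal macrophages to proliferate during helminth infection. It was 1.71-fold higher in Samhd1 KO than in WT (log2 change 0.77, SE 0.12, limma adjusted p = 0.00643). It was 1.60-fold higher in Samhd1 Sting dKO than in WT (log2 change 0.68, SE 0.12, limma adjusted p = 0.00773). Both calls held under all 23 other settings, with log2 changes of 0.65 to 0.87 and of 0.61 to 0.74. In Samhd1 Cardif dKO against WT the change missed the threshold (log2 change 0.51, SE 0.12, limma adjusted p = 0.0645), but DESeq2 gave an adjusted p of 0.00409, and without Samhd1 KO 3 limma gave 0.0417. Between the mutant groups Bhlhe40 did not pass: the log2 change was -0.09 in Samhd1 Sting dKO against Samhd1 KO, with an interval of -0.35 to 0.16, and -0.26 in Samhd1 Cardif dKO against Samhd1 KO (limma adjusted p = 0.549). The markers of dendritic cells, monocytes and small peritoneal macrophages moved in Samhd1 KO against WT, where 3 of 13 tested rose (Fcgr4 and Zbtb46 among them) and 1 fell (Cd209a), and their part in the rise of Bhlhe40 there was not tested. Of all tested genes, 2.71% rose and 1.62% fell in that comparison. In Samhd1 Sting dKO against WT limma called 0 of the 13, with 3 at an unadjusted p under 0.05, 0 by edgeR and 1 by DESeq2. There, 5 of the 12 B cell markers rose. In that comparison limma called 6.5% of all genes (3.57% higher), edgeR 6.63% and DESeq2 10.6%. The part of either list in the rise of Bhlhe40 in Samhd1 Sting dKO was not tested. Cebpb, a factor that large peritoneal macrophages of the mouse need, ran from 7380.0 to 11081 over the 12 libraries. In Samhd1 KO it was above WT without overlap, but by a log2 change of only 0.18 (limma adjusted p = 0.374).

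Of 17 other transcription factors of macrophages, 16 were in the table and tested. In Samhd1 KO against WT 1 rose and 0 fell (2.71% and 1.62% of all tested genes), with a median log2 change of 0.12. The one was Klf4, a zinc finger factor of myeloid cells, with 2176 ± 517 normalized reads in Samhd1 KO and 1114 ± 224 in WT (SD, n = 3; log2 change 0.95, SE 0.23, limma adjusted p = 0.0401). Against WT, Samhd1 Sting dKO had 4 of them higher and 0 lower (3.57% and 2.93% of all tested genes), with a median of 0.17. Klf4 reached 3439 ± 962 there (log2 change 1.60, SE 0.23, limma adjusted p = 0.00336). Rarg, a retinoic acid receptor, had a log2 change of 0.43, and Sfpi1, which encodes PU.1, one of 0.32 (limma adjusted p = 0.0224 and 0.0451). In the other 4 comparisons limma called 0 of 16 (0.144% to 5.66% of all genes). There, 4 to 7 had an unadjusted p under 0.05 (8.98% to 22.3% of all genes), and edgeR called 0 (0.151% to 5.87% of all genes). DESeq2 called 1 higher in Samhd1 Cardif dKO against WT and 1 higher in Samhd1 Sting dKO against Samhd1 KO. It called 3 higher in Samhd1 Sting dKO against Samhd1 Cardif dKO. Its shares of all genes in these comparisons were 3.99%, 10% and 3.8%. Klf4 in Samhd1 Sting dKO against WT kept its call under all 23 other settings. Klf4 in Samhd1 KO against WT lost it without WT 1, WT 3, Samhd1 KO 1 or Samhd1 KO 3 and with a replicate block, and Rarg without WT 1, WT 2, Samhd1 Sting dKO 1 or Samhd1 Sting dKO 3. Sfpi1 lost it without any 1 of 9 libraries. With age as a covariate Rarg and Sfpi1 lost their calls too. Over the 23 settings the adjusted p reached 0.142 for this call of Klf4, 0.0856 for Rarg and 0.16 for Sfpi1. B cells also carry PU.1, and the B cell marker sums were highest in Samhd1 Sting dKO. Their part in its rise was not tested.

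The 5 surface proteins that define the cell passed the test in none of the comparisons. The normalized reads of Emr1 were 65424, 89408 and 69939 for WT and 77655, 80187 and 76718 for Samhd1 KO. They were 71033, 67722 and 72193 for Samhd1 Cardif dKO, against 65282, 63227 and 56006 for Samhd1 Sting dKO. The Samhd1 Sting dKO libraries lay below all others, though only just below WT 1. The log2 change in Samhd1 Sting dKO against Samhd1 KO was -0.35, with an interval of -0.61 to -0.09 (limma adjusted p = 0.109), and DESeq2 called it with an adjusted p of 0.0271. Itgam stood at 127092, 171785 and 139497 normalized reads in the WT libraries and at 149849, 169519 and 141912 in the Samhd1 KO libraries. The Samhd1 Cardif dKO libraries had 168999, 163069.7 and 136623, and the Samhd1 Sting dKO libraries 137635, 149137 and 103654. Samhd1 Sting dKO 3 was the lowest of the 12 libraries and the groups overlapped. WT 1 to 3 had 15253, 17493 and 15873 normalized reads of Icam2, and Samhd1 KO 1 to 3 had 14371, 18704 and 15362. With a further adaptor lost, the values were 19525, 20099 and 14841 for Samhd1 Cardif dKO and 17071, 19831 and 11499 for Samhd1 Sting dKO. This gene encodes CD102, an adhesion protein used to tell large from small peritoneal macrophages. Samhd1 Sting dKO 3 was again the lowest, and no pair of groups separated. The normalized reads of Csf1r were 44694, 38386 and 41349 for WT and 43977, 42370.1 and 42781 for Samhd1 KO. They were 38559, 43109 and 46808 for Samhd1 Cardif dKO, against 42797, 38279.5 and 48318 for Samhd1 Sting dKO. Csf1r encodes the receptor for CSF-1 and IL-34, on which these cells depend. Its 95% interval in Samhd1 KO against WT was -0.18 to 0.29 on the log2 scale, and in Samhd1 Sting dKO against WT -0.18 to 0.29, which bounds a change to less than 1.5-fold in either direction. Timd4 stood at 20430.1, 16634 and 23403 normalized reads in the WT libraries and at 19675, 18447 and 16406 in the Samhd1 KO libraries. The Samhd1 Cardif dKO libraries had 10892, 19713 and 17894, and the Samhd1 Sting dKO libraries 17319.7, 16002 and 18849.7. Timd4 encodes TIM-4, the receptor for phosphatidylserine on dying cells. Samhd1 Cardif dKO 1 stood apart as the lowest library, and the other 11 overlapped between genotypes.

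Among the receptors for microbes, lipids and debris, Msr1 was higher in Samhd1 Sting dKO than in Samhd1 KO, and the others did not pass the test. WT 1 to 3 had 22562, 21186 and 21955 normalized reads of Msr1, and Samhd1 KO 1 to 3 had 19798, 19558 and 19086. With a further adaptor lost, the values were 18346, 21787 and 22257 for Samhd1 Cardif dKO and 24063, 23633 and 27998 for Samhd1 Sting dKO. The Samhd1 Sting dKO libraries were above all others and the Samhd1 KO libraries below all WT libraries. Msr1 encodes the class A scavenger receptor. It was 1.29-fold higher in Samhd1 Sting dKO than in Samhd1 KO (log2 change 0.37, SE 0.09, limma adjusted p = 0.0371). Leaving out any of the WT, Samhd1 KO or Samhd1 Sting dKO libraries moved the adjusted p to 0.0528 to 0.106, with a log2 change of 0.29 without Samhd1 Sting dKO 3, and a block on the replicate number gave 0.0501. The call was also lost with age as a covariate and in a fit to the 2 groups alone (limma adjusted p = 0.0587 and 0.0838). Against WT, Samhd1 Sting dKO showed a log2 change of 0.20 (limma adjusted p = 0.221). The normalized reads of Vsig4 were 13537, 11710.2 and 14823 for WT and 11395, 7175 and 6495 for Samhd1 KO. They were 8683, 10301 and 10241 for Samhd1 Cardif dKO, against 14149.9, 12287 and 9797 for Samhd1 Sting dKO. Vsig4 encodes CRIg, a complement receptor of resident macrophages. Samhd1 KO 2 and Samhd1 KO 3 were the lowest of the 12, and all Samhd1 KO libraries were below all WT libraries. The log2 change in Samhd1 KO against WT was -0.72 (SE 0.19), limma adjusted p = 0.059. Without Samhd1 KO 1 it was -0.96 with an adjusted p of 0.0112, without Samhd1 Sting dKO 3 the adjusted p was 0.0494, and DESeq2 gave 0.01. Between Samhd1 Sting dKO and Samhd1 KO it was 0.56 (limma adjusted p = 0.111), and without Samhd1 KO 1 it was 0.81 with an adjusted p of 0.0144.

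The scavenger receptor Marco ran from 9951 to 29981, and Samhd1 KO 1 and Samhd1 KO 2, at 29301 and 29981, were the highest while Samhd1 KO 3 was at 14016. Cd14, the co-receptor for lipopolysaccharide, ran from 6965 to 11609.7 with overlap in every comparison. Cd93, a C-type lectin domain receptor, was at 14919 to 15292 in WT and 9279 to 12816 in Samhd1 Sting dKO, without overlap. Naip1, an inflammasome sensor of bacterial secretion needles, was at 3884 to 4199.7 in WT, 2814 to 3079 in Samhd1 Cardif dKO and 2562 to 3439 in Samhd1 Sting dKO, where both dKO groups lay below WT. The log2 changes in Samhd1 Sting dKO against WT were -0.48 for Cd93 and -0.41 for Naip1 (limma adjusted p = 0.15 and 0.101). Without Samhd1 KO 1, limma gave adjusted p = 0.021 and 0.0316 for the same changes. In Samhd1 KO against WT without Samhd1 KO 1 they were -0.69 and -0.56 (limma adjusted p = 0.0132 and 0.0218). Lbp, the secreted protein that hands lipopolysaccharide to CD14, was at 3431 to 4059 in Samhd1 Sting dKO and 4666 to 6135 in WT, without overlap. Its log2 change was -0.51 against WT and -0.48 against Samhd1 KO (limma adjusted p = 0.061 and 0.0774). DESeq2 called both, with adjusted p = 0.0134 and 0.0234, and limma gave 0.0313 for the comparison with WT without Samhd1 Cardif dKO 1 and 0.0428 without Samhd1 Cardif dKO 3.

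Of 22 other genes for the uptake of dying cells, 21 were in the table and 19 were tested. In Samhd1 KO against WT 2 rose and 0 fell (2.71% and 1.62% of all tested genes), with a median log2 change of -0.09. The largest was Axl, a receptor that binds phosphatidylserine through GAS6, with 3203 ± 378 normalized reads in Samhd1 KO and 635 ± 187 in WT (SD, n = 3; log2 change 2.37, SE 0.29, limma adjusted p = 0.00259). Cd300lf, another lipid receptor, had a log2 change of 1.12 with overlapping groups (limma adjusted p = 0.0497). In Samhd1 Sting dKO against Samhd1 KO 1 rose and 1 fell, with a median of 0.09, beside 2.77% and 2.89% of all tested genes. Axl fell to 699 ± 340.5 (log2 change -2.30, SE 0.29, limma adjusted p = 0.00107), and Trem2, a lipid receptor, was at 1009 ± 204 in Samhd1 Sting dKO and 581 ± 42.5 in Samhd1 KO (log2 change 0.78, SE 0.18, limma adjusted p = 0.0274). Between Samhd1 Sting dKO and WT 0 rose and 1 fell (3.57% and 2.93% of all tested genes). That gene was Itgb3, the beta chain of a vitronectin receptor, at 956 ± 253 in Samhd1 Sting dKO and 1839.8 ± 197 in WT (log2 change -0.97, SE 0.20, limma adjusted p = 0.0151). In the comparisons of Samhd1 Cardif dKO with WT, of Samhd1 Cardif dKO with Samhd1 KO and of Samhd1 Sting dKO with Samhd1 Cardif dKO, limma called 0 of 19, with 4, 2 and 4 at an unadjusted p under 0.05. The unadjusted shares of all genes were 14.5%, 8.98% and 15.7%, and limma called 1.06%, 0.144% and 0.28% of all genes. There edgeR called 0 in each (1.19%, 0.151% and 0.317% of all genes). DESeq2 called 1, 2 and 1 (3.99%, 1.35% and 3.8% of all genes). Both calls of Axl held under all 23 other settings, with log2 changes of 2.17 to 2.59 and -2.67 to -1.97. Trem2 lost its call without Samhd1 KO 2, Samhd1 KO 3, Samhd1 Sting dKO 1 or Samhd1 Sting dKO 3, and Itgb3 without WT 1, WT 3 or Samhd1 Sting dKO 3 (adjusted p up to 0.0888 and 0.0631). Cd300lf lost it without any 1 of 10 libraries (adjusted p up to 0.176). With age as a covariate Trem2 and Cd300lf lost their calls too.

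**Figure D4:**
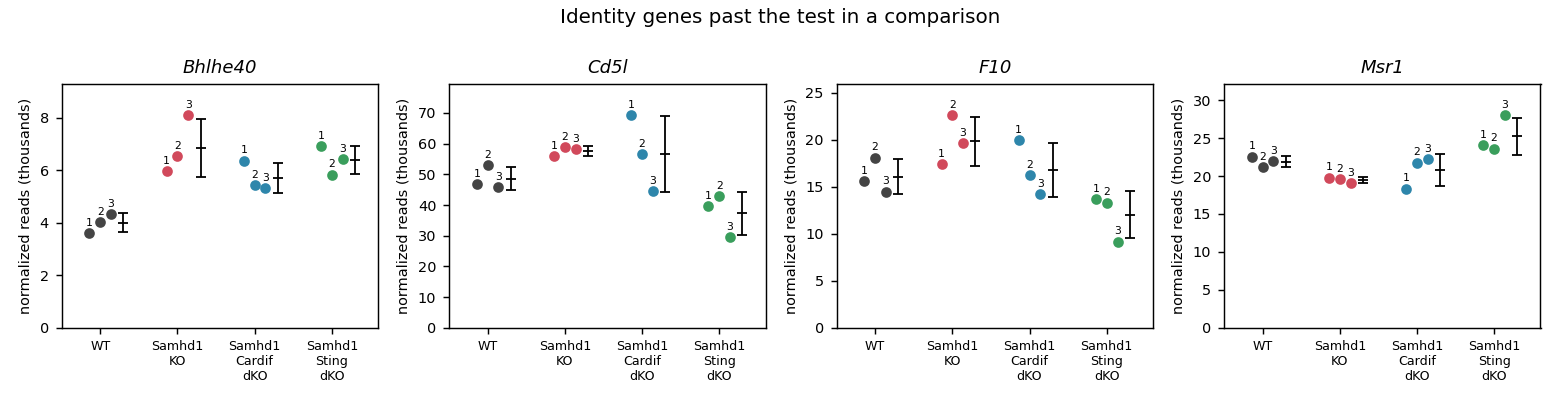
Normalized reads divided by 1000, in each of the 12 libraries, of the 4 genes that passed the test in a comparison: Bhlhe40, Cd5l, F10 and Msr1. Points are libraries with their replicate number, and the bars are the mean and SD of 3 libraries. Bhlhe40 is above WT in all mutant libraries. F10 and Cd5l are lowest in Samhd1 Sting dKO 3, and Msr1 is highest there.

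Of the 10 clotting, platelet and matrix genes, F10 was lower in Samhd1 Sting dKO than in Samhd1 KO, and the other 9 did not pass the test. F10 stood at 15621, 18085 and 14466 normalized reads in the WT libraries and at 17357, 22562 and 19582 in the Samhd1 KO libraries. The Samhd1 Cardif dKO libraries had 19916, 16257 and 14196, and the Samhd1 Sting dKO libraries 13643, 13286 and 9147. All Samhd1 Sting dKO libraries were below all libraries of the other 3 genotypes, and Samhd1 Sting dKO 3 was the lowest. F10 encodes factor X, which becomes the protease that activates prothrombin. It was 1.67-fold lower in Samhd1 Sting dKO than in Samhd1 KO (log2 change -0.74, SE 0.17, limma adjusted p = 0.0264). The log2 change was -0.43 in Samhd1 Sting dKO against WT and -0.49 in Samhd1 Sting dKO against Samhd1 Cardif dKO (limma adjusted p = 0.149 and 0.191). The call in Samhd1 Sting dKO against Samhd1 KO was lost without Samhd1 KO 2 (log2 change -0.64, adjusted p = 0.0914), without Samhd1 KO 3 (adjusted p = 0.0709) and without Samhd1 Sting dKO 3 (-0.55, adjusted p = 0.0695). It was also lost in a limma fit to the 2 groups alone (adjusted p = 0.0573) and held with age as a covariate. The sum of B cell markers moved with the same comparison, at 2401 to 4696 in Samhd1 Sting dKO against 589 to 974 in Samhd1 KO. Its part in the result was not tested.

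The gene of factor VII, the partner of tissue factor, lies just before F10 on mouse chromosome 8, and the annotated starts are 11274 bases apart. The 250 bases before each start are shown because the neighbours gave different results. They are from RefSeq on GRCm38.p6, plus strand, at chr8:13025784-13026033 for F7 and chr8:13037058-13037307 for F10. Neither these bases nor the 50 after each start hold any of the 5 motifs searched, which are named beside Cd5l, so no letters are in capitals.
F7: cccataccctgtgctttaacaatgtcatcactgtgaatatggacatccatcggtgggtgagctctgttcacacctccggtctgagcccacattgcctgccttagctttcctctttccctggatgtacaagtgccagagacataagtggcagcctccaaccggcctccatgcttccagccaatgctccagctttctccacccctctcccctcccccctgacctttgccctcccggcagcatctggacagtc
F10: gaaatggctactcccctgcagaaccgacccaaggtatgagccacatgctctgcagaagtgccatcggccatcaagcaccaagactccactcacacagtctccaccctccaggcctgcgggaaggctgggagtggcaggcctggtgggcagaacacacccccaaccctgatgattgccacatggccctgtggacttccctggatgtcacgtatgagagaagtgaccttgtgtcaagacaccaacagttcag
WT 1 to 3 had 2990.1, 4109.9 and 2667 normalized reads of F7, and Samhd1 KO 1 to 3 had 4025, 5823 and 4369. With a further adaptor lost, the values were 5414, 4794 and 4479 for Samhd1 Cardif dKO and 4508, 4051 and 3172 for Samhd1 Sting dKO. All Samhd1 Cardif dKO libraries were above all WT libraries, and the other groups overlapped with WT. The log2 change was 0.55 in Samhd1 KO against WT and 0.61 in Samhd1 Cardif dKO against WT (limma adjusted p = 0.114 and 0.144). DESeq2 called both, with adjusted p = 0.0441 and 0.0393. For F7 in Samhd1 Sting dKO against Samhd1 KO it was -0.27, with an interval of -0.67 to 0.12, and the difference between F7 and F10 in this comparison was not tested.

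The other genes of this group follow, led by the most abundant. The normalized reads of Fn1 were 886395, 956540.5 and 989149 for WT and 851308, 689819.8 and 939166 for Samhd1 KO. They were 1032468, 869658 and 898151 for Samhd1 Cardif dKO, against 822823, 1010027 and 850666 for Samhd1 Sting dKO. Fn1 encodes fibronectin, an adhesive matrix protein. Samhd1 KO 2 was the lowest and Samhd1 Cardif dKO 1 the highest, and the groups overlapped. Thbs1, which encodes the matrix protein thrombospondin-1, was at 149401, 171465 and 158237 in WT, 126655, 67885 and 111225 in Samhd1 KO and 95638, 104441 and 104439 in Samhd1 Cardif dKO. Both groups lay below WT without overlap, with log2 changes of -0.69 and -0.65 that did not pass the test (limma adjusted p = 0.156 and 0.263). Thbs1 was at 86979.8, 170313 and 148721 in Samhd1 Sting dKO and overlapped with WT. F5, the cofactor of factor X, ran from 41941 to 68735. Selp, the adhesion receptor P-selectin, ran from 29546 to 43618, and Serpinb2, an inhibitor of plasminogen activators, from 12948 to 26657. The lubricant proteoglycan Prg4 ran from 217445 to 289805. Each of these 4 genes had its lowest value in Samhd1 KO 2 or Samhd1 Sting dKO 3, and none of their adjusted p-values in limma was under 0.366 in any comparison with all 12 libraries. Without Samhd1 Sting dKO 2, Serpinb2 had a log2 change of -0.65 in Samhd1 Sting dKO against Samhd1 KO (limma adjusted p = 0.0212).

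Of 23 other genes of clotting and fibrinolysis, 18 were in the table and 13 were tested. Limma called 0 in all 6 comparisons (0.144% to 6.5% of all genes), with 2 to 4 at an unadjusted p under 0.05. Outside Samhd1 KO and Samhd1 Sting dKO against WT, 8.98% to 22.3% of all genes had such a p. There edgeR called 0 throughout (0.151% to 6.63% of all genes). DESeq2 called 1 higher and 1 lower in Samhd1 Sting dKO against WT (10.6% of all genes). It called 1 higher in Samhd1 Sting dKO against Samhd1 KO (10% of all genes). The medians of the 13 log2 changes lay between -0.11 and 0.11. The lowest adjusted p was that of F13a1, the subunit of factor XIII that crosslinks fibrin, in Samhd1 Sting dKO against Samhd1 KO. It was at 25419 ± 6566 normalized reads in Samhd1 Sting dKO, 8593 ± 3415 in Samhd1 KO and 9966 ± 1985 in WT (SD, n = 3). The log2 change was 1.60 against Samhd1 KO and 1.34 against WT (limma adjusted p = 0.0543 and 0.0926).

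The 2 members of the TGF-beta pathway did not pass the test. Ltbp1, which encodes a protein that holds latent TGF-beta in the matrix, was at 48880.1, 50469 and 51177 in WT, 40382, 32472 and 42964 in Samhd1 KO and 37401, 40215 and 43648 in Samhd1 Cardif dKO, both below WT without overlap. Its log2 change was -0.39 in Samhd1 KO against WT (limma adjusted p = 0.122), and DESeq2 gave 0.043. Tgfb2, the gene of a TGF-beta ligand, ran from 7906 to 15105 with overlap in all comparisons. Of 16 other genes of the pathway, 15 were in the table and 14 were tested. Between Samhd1 Sting dKO and WT 2 rose and 0 fell, with a median log2 change of 0.23, and in Samhd1 Sting dKO against Samhd1 KO 1 rose and 0 fell, with a median of 0.11. Of all tested genes, 3.57% rose and 2.93% fell in the first, and 2.77% and 2.89% in the second. Tgfb1, the main TGF-beta of leukocytes, rose in both, from 5259.7 ± 626 in WT to 6818 ± 621 in Samhd1 Sting dKO (SD, n = 3; log2 change 0.38, SE 0.10, limma adjusted p = 0.0477), and with a log2 change of 0.44 against Samhd1 KO (limma adjusted p = 0.0277). Tgfbr3, a co-receptor, rose against WT by a log2 change of 0.67 (limma adjusted p = 0.0164). Tgfbr3 lost its call without WT 3, Samhd1 Sting dKO 2 or Samhd1 Sting dKO 3 (adjusted p up to 0.0611). For Tgfb1 the call relative to Samhd1 KO was lost when Samhd1 KO 1, Samhd1 KO 2, Samhd1 Sting dKO 2 or Samhd1 Sting dKO 3 was left out, and that relative to WT under 17 of the 23 other settings, edgeR among them (adjusted p up to 0.0914 and 0.161). The call relative to Samhd1 KO was also lost in a fit to the 2 groups alone. In the other 4 comparisons limma, edgeR and DESeq2 each called 0 of 14, with 0 to 3 at an unadjusted p under 0.05. The shares of all genes called there were 0.144% to 4.32% by limma, 0.151% to 4.43% by edgeR and 1.35% to 8.12% by DESeq2. Outside Samhd1 KO against WT, 8.98% to 15.7% of all genes had an unadjusted p under 0.05 there.

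Among the secreted proteins, Cd5l was lower in Samhd1 Sting dKO than in Samhd1 KO. Cd5l stood at 46860.4, 52952 and 45897 normalized reads in the WT libraries and at 55824, 58770.2 and 58135 in the Samhd1 KO libraries. The Samhd1 Cardif dKO libraries had 69190.5, 56485 and 44463, and the Samhd1 Sting dKO libraries 39524, 42815 and 29523. The Samhd1 Sting dKO libraries were below all others, and Samhd1 Sting dKO 3 was the lowest. Cd5l encodes AIM, a scavenger-receptor protein that tissue macrophages release into blood. It was 1.56-fold lower in Samhd1 Sting dKO than in Samhd1 KO (log2 change -0.64, SE 0.16, limma adjusted p = 0.0408). Against Samhd1 Cardif dKO the log2 change was -0.60 and against WT -0.40 (limma adjusted p = 0.136 and 0.175). For the comparison of the dKO groups the authors' deposited table gives a log2 change of -0.60 with an adjusted p of 0.0653, and DESeq2 on the recovered reads gave 0.012. The call against Samhd1 KO was lost when any 1 of WT 1 to 3, Samhd1 KO 1 to 3, Samhd1 Cardif dKO 2, Samhd1 Sting dKO 1 or Samhd1 Sting dKO 3 was left out. It was also lost with age as a covariate and in a fit to the 2 groups alone (limma adjusted p = 0.0593 and 0.0599). Over all 23 other settings the adjusted p reached 0.112, and the log2 change ran from -0.75 to -0.48. As for F10, the B cell markers were highest in Samhd1 Sting dKO, and their part was not tested.

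The promoter of Cd5l is shown because it holds a match to the letters that GATA factors bind, at a gene that passed the test. The 250 bases before its start lie at chr3:87357631-87357880, plus strand (RefSeq, GRCm38.p6). The capitals mark TGATAA, whose first base is 127 bases before the start, and a second copy lies in the 50 bases after the start.
Cd5l: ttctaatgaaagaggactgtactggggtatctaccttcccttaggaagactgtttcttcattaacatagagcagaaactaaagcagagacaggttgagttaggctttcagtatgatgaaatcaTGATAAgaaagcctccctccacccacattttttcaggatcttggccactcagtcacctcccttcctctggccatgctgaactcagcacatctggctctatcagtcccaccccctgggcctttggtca
Over 250 bases before and 50 after the start, on both strands, AGATAA or TGATAA, which share GATAA, was found in 5 of the 23 members that the RefSeq table holds (21.7%). It was found in 21.0% of all 27025 genes of that table. The 5 were Cd5l, Slpi, Serpinb2, Tgfb2 and Saa3. The E-box CACGTG, the letters that BHLHE40 and related factors can bind, was found in 3 of the 23, Tgfb2, Slpi and Padi4, and in 8.09% of all genes. The core of the interferon-stimulated response element, ISRE, was found in 1, Saa3, and in 3.99% of all genes. GAGGAAGT, a PU.1 motif, was found in 0 of the 23 and in 3.69% of all genes. These are matches of letters and not measured binding.

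The secreted chemokine Cxcl13, which draws B cells to the peritoneal cavity, had the largest log2 change of the 37 genes in 4 of the 6 comparisons, but none passed the test. WT 1 to 3 had 35568, 29895 and 38925 normalized reads of Cxcl13, and Samhd1 KO 1 to 3 had 21506, 17478 and 11157. With a further adaptor lost, the values were 6169.8, 18746 and 22689 for Samhd1 Cardif dKO and 34699, 25656 and 40924 for Samhd1 Sting dKO. All Samhd1 KO and Samhd1 Cardif dKO libraries were below all WT and Samhd1 Sting dKO libraries, and Samhd1 Cardif dKO 1 was the lowest. The log2 change was -1.10 in Samhd1 KO against WT and 1.04 in Samhd1 Sting dKO against Samhd1 KO (limma adjusted p = 0.156 and 0.151). Samhd1 Cardif dKO 1 belongs to neither comparison but adds to the spread of the fit. Without it the same changes had limma adjusted p = 0.0216 and 0.0224, and with sex as a covariate 0.0218 and 0.0227. The sex term fits the only male library, Samhd1 Cardif dKO 1, exactly, so these are nearly the same fit and not 2 separate results. Between the dKO groups the change was 1.27 (limma adjusted p = 0.169), and the authors' deposited table gives 1.09 with an adjusted p of 0.0661. Cxcl13 and Cd5l were the only 2 of the 37 with an adjusted p under 0.1 in the authors' deposited table, against 155 of all genes. The B cell marker sums were also lowest in Samhd1 KO and Samhd1 Cardif dKO 1 and highest in Samhd1 Sting dKO. Their part in the Cxcl13 differences was not tested.

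The other secreted proteins passed in no comparison. The normalized reads of Lyz2 were 1096464, 916436 and 1057634 for WT and 807748, 599699 and 761359 for Samhd1 KO. They were 558899, 877030.5 and 968203 for Samhd1 Cardif dKO, against 963283, 915134 and 933899.9 for Samhd1 Sting dKO. Lyz2 encodes the lysozyme of macrophages. All Samhd1 KO libraries were below all WT and all Samhd1 Sting dKO libraries, and Samhd1 Cardif dKO 1 was the lowest of the 12. The log2 change in Samhd1 KO against WT was -0.51 (limma adjusted p = 0.279), and DESeq2 gave 0.0477. Apoc1, an apolipoprotein gene, was at 715, 718 and 854 in Samhd1 Sting dKO and 1482, 905 and 1849 in WT, without overlap, and at 221 in Samhd1 Cardif dKO 1. The log2 change in Samhd1 Sting dKO against WT was -0.83 (limma adjusted p = 0.298), and without Samhd1 Cardif dKO 1 limma gave 0.0493. Slpi, a protease inhibitor, ran from 57628 to 101211 in 11 libraries and was at 186440.0 in Samhd1 Cardif dKO 1. Saa3, an acute-phase protein, was at 269469.7 in Samhd1 KO 2 and at 175042 in Samhd1 Sting dKO 3, and ran from 85923 to 126647 in the other 10.

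The 6 enzymes and other membrane or signalling genes passed in no comparison with limma. The lipoxygenase Alox15, which makes lipid mediators and marks resident peritoneal macrophages of the mouse, had a log2 change of -0.05 in Samhd1 KO against WT, with an interval of -0.33 to 0.22, and of -0.06 in Samhd1 Sting dKO against WT, with an interval of -0.33 to 0.22. Padi4, an enzyme that converts arginine in proteins to citrulline, was at 32759.6 to 41126 in Samhd1 KO and 40879.9 to 51783 in Samhd1 Sting dKO, where Samhd1 Sting dKO 3 lay just below Samhd1 KO 2. Its log2 change was 0.36 (limma adjusted p = 0.101), and DESeq2 gave 0.0268. The endothelin receptor gene Ednrb was at 40116 to 47026 in Samhd1 Sting dKO and 35768 to 40073 in WT, above it without overlap, with a log2 change of 0.21 (limma adjusted p = 0.328). The tetraspanin gene Cd9 was at 9089.7 to 11111 in Samhd1 KO, below the 11472 to 14712 of WT, with a log2 change of -0.36 (limma adjusted p = 0.349). Laptm5, a lysosomal membrane protein of leukocytes, was at 65262 to 85683 in Samhd1 Sting dKO, below the 86624 to 98688 of WT, with a log2 change of -0.27 (limma adjusted p = 0.238). Garnl3 ran from 4361 to 11775, and Samhd1 Sting dKO 3 was the lowest. Of these 6 genes, Alox15, Garnl3 and Laptm5 were lowest of all 12 libraries in Samhd1 Sting dKO 3, as were Emr1, Itgam, Icam2, F10, Cd5l and others named above.

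The count of called genes depended on single libraries. In Samhd1 Sting dKO against Samhd1 KO it was 3 of 37, but 0 without Samhd1 KO 2, without Samhd1 KO 3 or without Samhd1 Sting dKO 3, 1 (F10) without Samhd1 Sting dKO 1 or any 1 of the WT libraries, and 5 without Samhd1 Cardif dKO 1, when Cxcl13 and Lbp were added. It was also 3 without Samhd1 Sting dKO 2, with Serpinb2 in place of Msr1. In Samhd1 KO against WT it was 1, but 4 without Samhd1 KO 1, when Cd93, Naip1 and Vsig4 were added, and 2 without Samhd1 Cardif dKO 1 or without Samhd1 Sting dKO 3. For Samhd1 Sting dKO and WT it was 1 and reached 3 without Samhd1 KO 1, when Cd93 and Naip1 were added, and without Samhd1 Cardif dKO 1, when Apoc1 and Lbp were added, and 2 without Samhd1 Cardif dKO 3, when Lbp was added. In Samhd1 Cardif dKO against WT it was 0 and became 1, Bhlhe40, without Samhd1 KO 3.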

How the data were processed

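Total RNA of FACS-isolated mouse peritoneal macrophages was poly-dT-enriched and sequenced as strand-specific libraries, per the labels' protocols. Genes are those of Ensembl 61 on mm9, per the file headers. Tools named in the submitters' processing notes are DESeq 1.6.1 and bedtools 2.16.2. Not given in the sources used here are the aligner and whether counting used the strand. The signal values deposited by the authors are reads per gene divided by 1 size factor per library. Each value was a whole number of reads once divided by the value of 1 read (100%, within 1e-04 reads), which recovered 18884021 to 32204657 reads per library. The deposited fold, log2 and p-value columns are the authors' own comparison of Samhd1 Sting dKO with Samhd1 Cardif dKO and are quoted only as such. The table lists no gene without a read in the 6 dKO libraries.

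The 37 genes, the other gene lists and the marker lists were chosen with earlier results of these data known. The 13231 genes that reached 10 normalized reads in 3 or more libraries were tested with limma 3.58.1 under R 4.3.3 on log2(normalized reads + 1), a scale on which the change of a low gene is understated. One mean per genotype was fitted to all 12 libraries, with a trended prior and 8 residual degrees of freedom. Adjusted p is Benjamini-Hochberg over all tested genes within each of the 6 comparisons, with a threshold of 0.05, and "called" means past it. Intervals are 95%. The fit was tested on simulated data. Alternatives were TMM factors, no filter, a mean of at least 50, pseudocounts of 0.5 and 5, edgeR 4.0.16 and DESeq2 1.42.0 on recovered reads, the 2 groups alone, sex, age or replicate number as a term, and leaving out each library. Library values were given for each called gene and for Gata6, Timd4, Emr1, Icam2, Itgam, Csf1r, Vsig4, Cd5l, Lyz2 and Fn1 by rule, and for other genes where libraries stood apart, chosen after their values were seen. Other lists were named by lowest adjusted p, and some of their genes are not reported here. Transcript lengths and promoters were matched by symbol or Ensembl ID, and 23 of the 37 had a promoter in the RefSeq table. The figures plot these same values.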

Additional observations from a re-analysis of the deposited data

How the results depend on the processing

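No change of the 37 genes that was called or became called reversed its direction under the 23 alternatives. TMM factors, both filters, both pseudocounts and edgeR gave the same calls for all 222 tests. DESeq2 called 5 of the 37 genes in Samhd1 KO against WT, 2 in Samhd1 Cardif dKO against WT, 2 in Samhd1 Sting dKO against WT, 6 in Samhd1 Sting dKO against Samhd1 KO and 1 in Samhd1 Sting dKO against Samhd1 Cardif dKO, where limma called 1, 0, 1, 3 and 0. Fits to the 2 groups alone gave 2, 1, 2 and 0 in Samhd1 KO against WT, Samhd1 Cardif dKO against WT, Samhd1 Sting dKO against WT and Samhd1 Sting dKO against Samhd1 KO. With sex as a covariate the counts were 2 in Samhd1 KO against WT, 2 in Samhd1 Sting dKO against WT and 5 in Samhd1 Sting dKO against Samhd1 KO. The sex term fits the only male library, Samhd1 Cardif dKO 1, exactly, so this setting nearly repeats leaving that library out. With age the counts were 2 in Samhd1 KO against WT (Bhlhe40 and Vsig4) and 1 in Samhd1 Sting dKO against Samhd1 KO (F10). Msr1 and Cd5l lost their calls there. Leaving out 1 library at a time gave 1 to 4 genes in Samhd1 KO against WT, 0 to 1 in Samhd1 Cardif dKO against WT, 1 to 3 in Samhd1 Sting dKO against WT, 0 to 5 in Samhd1 Sting dKO against Samhd1 KO, and 0 in both Samhd1 Cardif dKO against Samhd1 KO and Samhd1 Sting dKO against Samhd1 Cardif dKO. The cause of these shifts was not tested.

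Same-numbered libraries did not deviate together: 7 of 18 pairs had a correlation over 0.1 (range -0.43 to 0.37), and 4 of 12 libraries correlated best with their own number. A replicate block left 1, 0, 1, 0, 2 and 0 genes called in Samhd1 KO against WT, Samhd1 Cardif dKO against WT, Samhd1 Sting dKO against WT, Samhd1 Cardif dKO against Samhd1 KO, Samhd1 Sting dKO against Samhd1 KO and Samhd1 Sting dKO against Samhd1 Cardif dKO, and Msr1 was lost (adjusted p = 0.0501). With 3 libraries a group and a median SE of 0.17, a missed threshold does not show that levels were equal.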

Other observations

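The 16 proliferation genes, which cover DNA replication and mitosis, summed to less in every Samhd1 Sting dKO library than in every Samhd1 KO and Samhd1 Cardif dKO library. Their summed normalized reads were 5184, 19687 and 16789 in Samhd1 KO, and 33691, 8149 and 11922 in Samhd1 Cardif dKO. The 3 Samhd1 Sting dKO libraries had 4681, 3653 and 1889. WT overlapped with each of the mutant groups, with 5386, 12965 and 2627. Limma called 0 of the 16 in Samhd1 Sting dKO against Samhd1 KO, where 5.66% of all genes were called, with 12 at an unadjusted p under 0.05 (22.3% of all genes), 0 by edgeR and 6 by DESeq2 (5.87% and 10% of all genes). For Samhd1 Sting dKO and Samhd1 Cardif dKO limma called 0, against 0.28% of all genes, with 16 of 16 at an unadjusted p under 0.05 (15.7%), 0 by edgeR and 8 by DESeq2 (0.317% and 3.8%). The median log2 change was -2.31 and -2.42 in these comparisons and 1.34 in Samhd1 KO against WT.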
